A study of Mus musculus with 10 samples.

Results

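The genes described here are 9 enzymes that build fatty acids or put double bonds into them: Acly, Acaca, Fasn, Scd1, Scd2, Fads1, Fads2, Fads3 and Fads6. They were chosen by name as a pathway, with earlier results of these data known, out of the 55536 mouse genes counted in every library. All 9 passed the filter on low counts in every comparison. Cerebellum and cerebral cortex of 5 mice aged 1 year were profiled by RNA-seq, in 10 libraries with 16088310 to 22975355 gene counts each. The 2 knockout (KO) mice carried a frameshift deletion in both copies of Snx14, a sorting nexin of the endoplasmic reticulum, in every cell of the body. The 3 control mice were 2 heterozygous (Het) animals, controls 1 and 2, and 1 wild-type (WT) animal, control 3, and the labels name all 3 as controls. Each animal gave both tissues, and the KO animals all carry the same allele.

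Cytosolic fatty acid synthesis starts from citrate, which Acly cleaves to acetyl-CoA. Acaca carboxylates acetyl-CoA to malonyl-CoA, the step that commits carbon to the pathway, and Fasn condenses these units into palmitate. Scd1 and Scd2 then insert the first double bond into saturated chains, and Fads1 and Fads2 desaturate the dietary precursors of arachidonic and docosahexaenoic acid. In the brain the products go largely into membrane phospholipids and myelin, and transcription of several of these genes is under the sterol regulatory element binding factor Srebf1.

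The labels were checked first. Snx14 was measured at 42.8, 39.9 and 73.3 counts-per-million (CPM) in cerebellum of controls 1 to 3 and at 15.5 and 17.4 CPM in KO 1 and KO 2. In cortex it stood at 34.4, 35.0 and 50.9 CPM in controls and at 14.8 and 16.1 CPM in KO. KO libraries were lowest in both tissues, and the WT animal was highest. The log2 fold change was −1.66 in cerebellum (edgeR adjusted p = 0.0140) and −1.36 in cortex (edgeR adjusted p = 0.754). The summed CPM of 10 cerebellar granule cell markers were 4856 to 5691 in cerebellum and 1048 to 1501 in cortex, and those of 9 cortical excitatory neuron markers 643 to 736 and 4494 to 7361. Slc17a7 is on both lists, so these sums are not independent. Between the tissues of controls, 9 of the granule cell markers were called higher in cerebellum and 1 lower. Of the cortical markers, 7 were called lower in cerebellum and 1 higher. A pair of libraries stood apart from their group. Cortex control 2 had the lowest cortical excitatory neuron sum (4494 CPM against 6732 to 7361 in the others), the highest sum of 10 striatum markers (4496 CPM, against 2027 and 1843 in the other controls and 1150 and 610.0 in KO) and the highest sum of 10 oligodendrocyte markers (9254 CPM against 5011 to 5491). Cerebellum KO 1 had a choroid plexus sum of 61.4 CPM, against 1210 to 3436 CPM in the other cerebellum libraries.

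The 9 genes lie in 2 chromosomal groups of the GRCm38 build. On chromosome 11 are Acaca (chr11:84129672-84401651, plus strand), Acly (chr11:100476353-100528000, minus strand), Fads6 (chr11:115279622-115297663, minus strand) and Fasn (chr11:120805846-120824547, minus strand). On chromosome 19, Fads3 (chr19:10041569-10060110, plus strand), Fads2 (chr19:10062765-10101746, minus strand) and Fads1 (chr19:10182888-10196877, plus strand) are neighbours, and Scd2 (chr19:44293674-44306864, plus strand) and Scd1 (chr19:44394455-44407879, minus strand) form another cluster. None of the 9 shared exonic bases with another gene, except 1.12% of Scd2 with Mir5114. Of the stretches of 150 bases in the longest Acaca transcript, 34.0% were identical to the gene Gm5182, which received 2 to 13 counts per library, and reads that map to several places were not counted. The level of Acaca may therefore be understated. Scd1 shared 0.769% of such stretches with Scd3.

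To show what lies in front of these genes, the 250 bases before the start of transcription were taken from the RefSeq table for GRCm38.p6, which held 6 of the 9 genes. Of these, 3 windows that overlap no annotated exon are printed, for a gene of each step: acetyl-CoA supply, chain synthesis and the Fads family. Capitals mark 2 short motifs that were found on either strand, the NF-Y box (CCAAT, or ATTGG on the other strand) and the Sp1 box (GGGCGG, or CCGCCC on the other strand). The windows are chr11:100528001-100528250 for Acly and chr11:120824548-120824797 for Fasn, both on the minus strand, and chr19:10041298-10041547 for Fads3 on the plus strand.
Acly: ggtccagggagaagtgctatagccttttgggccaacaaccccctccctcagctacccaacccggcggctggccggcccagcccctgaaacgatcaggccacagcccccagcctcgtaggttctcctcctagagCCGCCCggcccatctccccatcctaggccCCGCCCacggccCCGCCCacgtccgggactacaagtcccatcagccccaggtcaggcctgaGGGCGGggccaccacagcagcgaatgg
Fasn: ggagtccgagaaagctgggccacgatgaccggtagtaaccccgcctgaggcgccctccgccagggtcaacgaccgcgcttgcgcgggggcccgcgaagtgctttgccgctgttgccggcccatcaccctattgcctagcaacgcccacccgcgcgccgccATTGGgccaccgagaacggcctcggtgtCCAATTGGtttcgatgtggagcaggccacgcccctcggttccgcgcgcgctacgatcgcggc
Fads3: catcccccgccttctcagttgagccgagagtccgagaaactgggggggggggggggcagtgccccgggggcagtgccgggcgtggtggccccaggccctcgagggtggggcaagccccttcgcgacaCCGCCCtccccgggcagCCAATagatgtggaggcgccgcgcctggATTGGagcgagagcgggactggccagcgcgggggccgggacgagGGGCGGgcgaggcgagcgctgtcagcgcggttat

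The Acly window held 4 Sp1 boxes, the nearest 27 bases before the start. In the Fasn window there were 3 NF-Y boxes, at 90, 62 and 59 bases before the start, of which the last 2 overlap. Fads3 had 2 NF-Y and 2 Sp1 boxes. The windows of Fads2 and Fads6 each held 1 Sp1 box, 186 and 30 bases before the RefSeq start, but both windows overlap the first exon of the gene in GENCODE M21 and both boxes lie in that exon. The Acaca window (chr11:84195188-84195437, plus strand) belongs to an alternative start inside the gene, not to the gene start given above, and held neither motif. An NF-Y box was present in 33.9% and an Sp1 box in 32.7% of the 32851 promoter windows in the table, so neither is rare. A sterol regulatory element (TCACNCCAC, in 1.05% of all windows), the E-box CACGTG (6.02%) and the nuclear receptor repeat DR4 (0.0152%) were searched on both strands too and were in none of the 6 windows, which says only that these letters are not there. The G and C content of the windows was 64.8 to 74.4%, except for the internal Acaca window with 39.2%, against a median of 52.4% over all windows.

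Levels of different genes were compared per length, as transcripts-per-million (TPM) computed from the counts and the exonic lengths in the tables. In control cerebellum Scd2 was the most abundant of the 9 by far, at 768 ± 38.5 TPM (SD, n = 3). Acly followed at 130.0 ± 5.82 TPM. Scd1 (101 ± 5.11 TPM) and Fads1 (100.03 ± 5.02 TPM) overlapped between animals. Below them came Fads2 (81.2 ± 1.99 TPM), then Fads6 (59.1 ± 6.46 TPM) and Fasn (53.6 ± 1.83 TPM), whose values overlapped. Fads3 (13.8 ± 1.54 TPM) and Acaca (12.4 ± 1.19 TPM), again overlapping, were lowest.

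In control cortex Scd2 again stood first, at 658 ± 25.8 TPM. The next 4, Fads1 (112 ± 16.8 TPM), Fads2 (104.5 ± 13.4 TPM), Acly (104 ± 3.57 TPM) and Scd1 (102 ± 9.09 TPM), each overlapped with the next in order. Fasn stood apart from its neighbours at 71.3 ± 13.2 TPM, as did Fads3 at 19.7 ± 4.76 TPM. Fads6 (12.6 ± 0.478 TPM) and Acaca (12.2 ± 2.82 TPM) overlapped at the bottom. The plot of TPM by gene shows the gap between Scd2 and the rest, and the lower place of Fads6 in cortex. The 17074 exonic bases of Acaca in the tables are the union of all its isoforms, against 9513 bases in its longest transcript, which lowers its TPM.

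**Figure D1:**
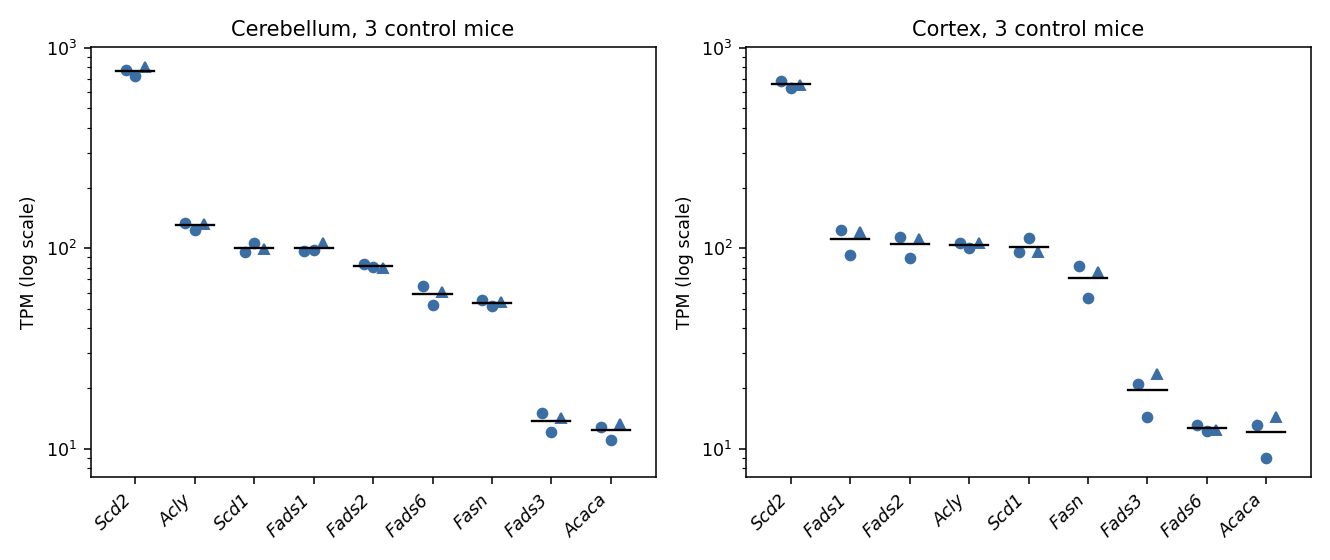
Level per length (TPM, log axis) of the 9 genes in the 3 control mice, cerebellum on the left and cortex on the right, ordered by mean. Circles are the 2 Het animals, triangles the WT animal and bars the mean; Scd2 is highest in both tissues (768 and 658 TPM) and Fads6 drops from 59.1 TPM in cerebellum to 12.6 TPM in cortex.

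The first comparison asked whether the pathway was transcribed differently in the tissue that degenerates in these animals. In cerebellum 8 of the 9 genes had a log2 fold change above 0 in KO against control, with a median of 0.20, but none was called. Calls needed a Benjamini-Hochberg adjusted p under 0.05 in edgeR's quasi-likelihood test and an absolute log2 fold change over 0.5, and 1.55% of the 19447 genes tested met both. Fads2, the desaturase that opens the synthesis of long polyunsaturated fatty acids, had the smallest p and passed the p threshold but not the fold minimum. Over all genes 50.2% had a log2 fold change above 0, and the median was 0.0009.

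Among the enzymes that supply and join the carbon units, Acly was at 211, 207 and 215 CPM in cerebellum of controls 1 to 3 and at 235 and 262 CPM in KO 1 and KO 2. Both KO libraries lay above all controls, by a log2 fold change of 0.23 (SE 0.0702, unadjusted p = 0.0111, edgeR adjusted p = 0.189). Fasn gave 181, 179.8 and 181 CPM in controls and 197 and 218 CPM in KO. The 3 controls were within 1.38 CPM of each other, and the log2 fold change was 0.19 (SE 0.0658, edgeR adjusted p = 0.237). Acaca gave 65.9, 59.8 and 69.1 CPM in controls and 67.8 and 66.3 CPM in KO, so the groups overlapped, with a log2 fold change of 0.04 (SE 0.0760).

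Of the stearoyl-CoA desaturases, Scd1 was measured at 141, 165 and 149 CPM in control cerebellum and at 185 and 211 CPM in KO. The groups were apart, with a log2 fold change of 0.38 (SE 0.0888, unadjusted p = 0.00251, edgeR adjusted p = 0.0830). Scd2, the main brain form, gave 1264, 1262 and 1342 CPM in controls and 1410.2 and 1568 CPM in KO. Here too both KO libraries were above every control, but the log2 fold change was 0.20 (SE 0.0933, edgeR adjusted p = 0.412).

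In the Fads family, Fads2 stood at 82.3, 84.2 and 80.3 CPM in control cerebellum and at 99.7 and 117 CPM in KO. The log2 fold change was 0.39, or 1.31-fold (SE 0.0787, unadjusted p = 0.000913, edgeR adjusted p = 0.0461). Of all 19447 genes, 0.735% were higher at an adjusted p under 0.05, and Fads2 was the 1 gene of the 9 among them. This p rested on individual libraries: it was 0.193 without control 1, 0.178 without control 3 and 0.276 without KO 2, and 0.0357 without KO 1, where the log2 fold change was 0.51 and the gene was called. Fads1, which acts after Fads2 in the same pathway, gave 139, 149 and 156 CPM in controls and 179 and 191 CPM in KO. Its groups did not overlap either, with a log2 fold change of 0.32 (SE 0.0701, unadjusted p = 0.00173, edgeR adjusted p = 0.0664).

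Fads3, a family member that acts on sphingoid bases, was low and variable, with 17.1, 14.6 and 16.5 CPM in control cerebellum and 14.9 and 20.1 CPM in KO. Its groups overlapped, and the log2 fold change was 0.12 (SE 0.149). Fads6, whose substrate is not well established, gave 129, 110.01 and 123 CPM in controls and 115 and 107 CPM in KO. It was the only one of the 9 with a negative log2 fold change, −0.13 (SE 0.0774, edgeR adjusted p = 0.560), and its groups overlapped.

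At an unadjusted p under 0.05, 5 of the 9 (Acly, Fasn, Scd1, Fads1 and Fads2) were higher in KO cerebellum and none was lower, where 6.90% of all genes were higher and 6.53% lower by that rule. KO libraries lay above every control for 6 of the 9, these 5 and Scd2, against 15.5% of all genes. DESeq2, run as an alternative, gave adjusted p-values of 0.00390 for Fads2, 0.00818 for Scd1 and 0.00891 for Fads1, all below the fold minimum, so it called none of the 9 either. For Scd1, Fads1 and Fads2 the KO value was higher in KO 2 than in KO 1, and leaving out KO 2 lowered the log2 fold changes to 0.27, 0.26 and 0.26. KO 2 was also the higher for Acly, Fasn, Scd2 and Fads3, but not for Acaca and Fads6. The median log2 fold change of the 9 was 0.12 without KO 2 and 0.31 without KO 1.

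**Figure D2:**
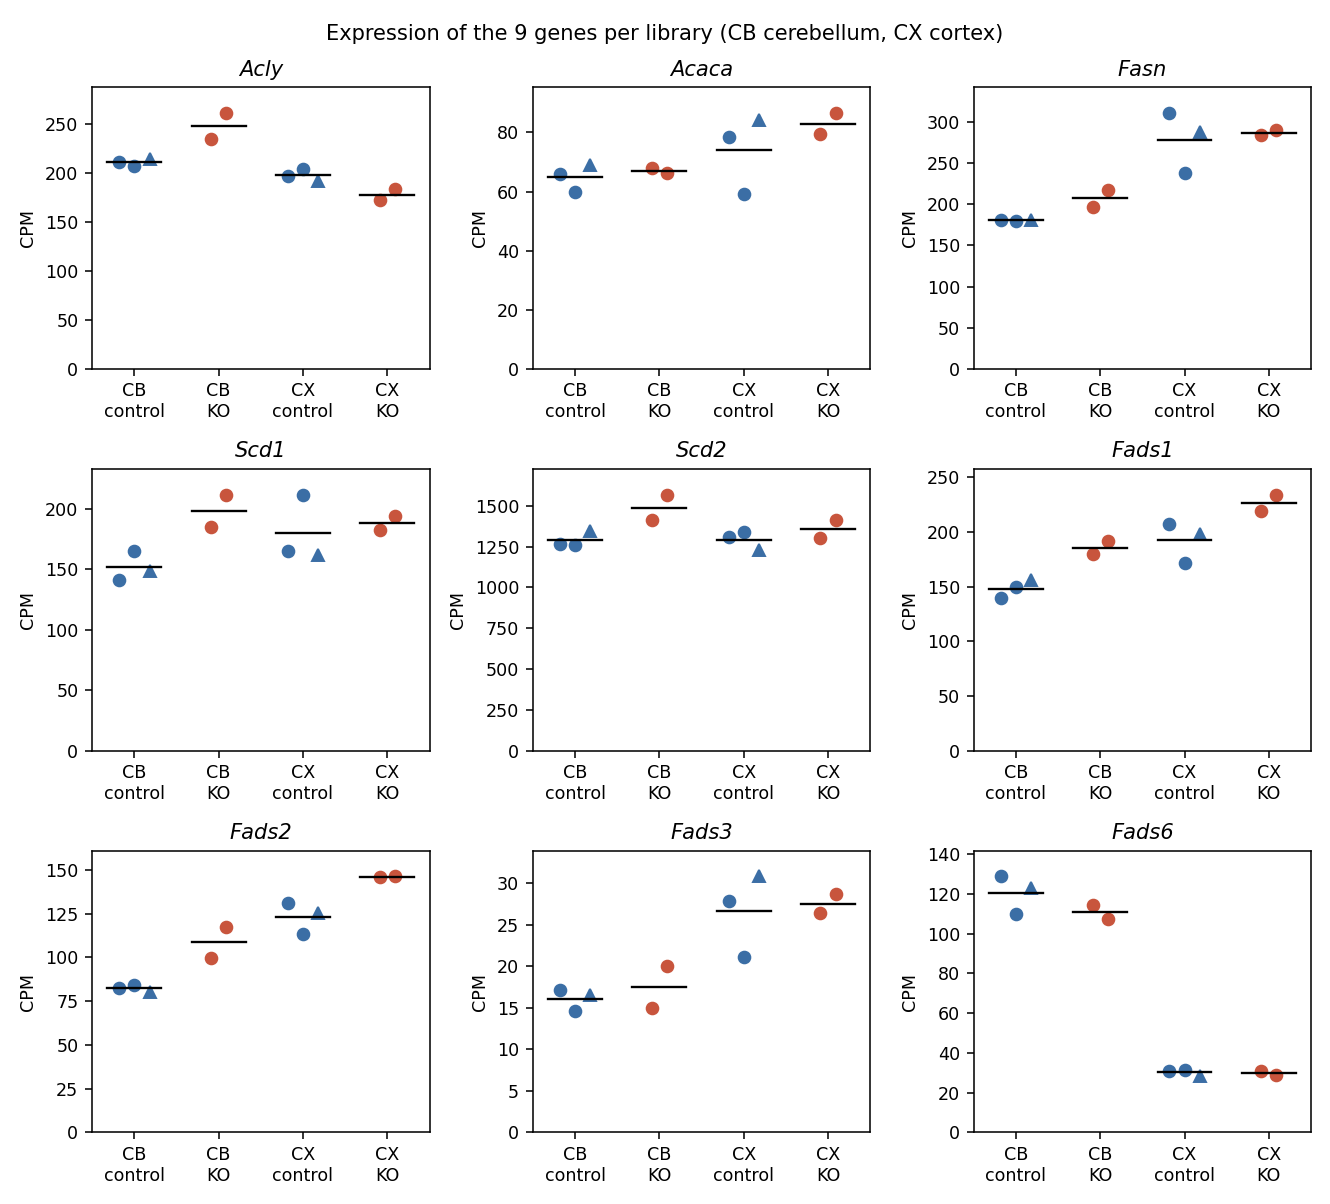
Expression (CPM, axis from 0) of each of the 9 genes in every library, in blue for controls and red for KO, with the mean as a bar; triangles are the WT control. In cerebellum (CB) both KO points lie above the controls for 6 genes, while in cortex (CX) they do so for Fads1 and Fads2 and lie below them for Acly.

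The cell type markers moved with the genotype in cerebellum. The summed CPM of 12 Purkinje cell markers were 9461 to 11226 in controls and 4810 to 4941 in KO, and 12 of the 12 were called lower. The sums of 9 reactive astrocyte markers were 390 to 465 and 784 to 826 CPM, with 4 called higher, and those of 10 microglia markers 207 to 238 and 307 to 315 CPM, with 2 called higher. For 10 astrocyte and Bergmann glia markers the sums were 3608 to 3905 and 3996 to 4211 CPM, with 3 called higher and 1 lower. KO sums were also above all controls for 10 disease-associated microglia markers (121 to 138 CPM in controls and 170.3 to 220 CPM in KO, 2 called higher), for 8 fibroblast and meninges markers (651 to 1128 and 1378 to 1768 CPM, 1 called higher) and for 8 endothelial cell markers (154 to 169 and 182 to 193 CPM, 1 called higher). The same held for 10 striatum markers, a list for another brain region (447 to 488 and 509 to 539 CPM, none called). In bulk tissue, fewer cells of a type and less RNA per cell cannot be told apart. The part of these shifts in the values of the 9 genes was not tested.

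Myelinating cells express Scd1 and Scd2, so oligodendrocyte markers were set beside them. The sum of 10 such markers was 4559, 6845 and 5578 CPM in cerebellum of controls 1 to 3 and 6077 and 7764 CPM in KO 1 and KO 2. The ranges overlapped, and none of the 10 was called. At an unadjusted p under 0.05, 3 of the 10 were higher and none was lower, and their median log2 fold change was 0.19, beside 0.20 for the 9 genes. Scd1 was highest among controls in control 2 and higher in KO 2 than in KO 1, and so was this sum. Its part in the Scd1 value was not tested. The sums of 6 adipocyte markers, another source of lipid synthesis transcripts, reached at most 0.450 CPM in any library, with Plin1, the lipid droplet coat protein that defines the cell type, at 0 in every cerebellum library.

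In cortex, which shares no library with the cerebellum comparison but comes from the same animals, none of the 9 genes was called, and 0 of the 19202 genes tested were called in that tissue by edgeR, where 5.93% had an unadjusted p under 0.05 and DESeq2 called 49. The median log2 fold change of the 9 was 0.08, against 0.0012 for all genes. At an unadjusted p under 0.05, Fads1 and Fads2 were higher and none was lower, where 2.64% of all genes were higher and 3.29% lower.

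Fads2 gave 131, 113 and 126 CPM in control cortex and 145.7 and 146 CPM in KO. KO libraries were above all controls, with a log2 fold change of 0.26 (SE 0.0930, unadjusted p = 0.0244, edgeR adjusted p = 0.796). Fads1 gave 207, 171 and 198 CPM in controls and 219 and 234 CPM in KO, again without overlap, and its log2 fold change was 0.25 (SE 0.107, unadjusted p = 0.0478, edgeR adjusted p = 0.836). KO libraries lay above all controls for 10.5% of all genes and below them for 14.2%.

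Marker sums were apart between the genotypes in cortex too. The striatum sums were 1843 to 4496 CPM in controls and 610.0 to 1150 CPM in KO, and 10 of the 10 markers were lower at an unadjusted p under 0.05, with a median log2 fold change of −1.72. The sums of astrocyte and Bergmann glia markers were 2840 to 3955 and 4102 to 4424 CPM, those of reactive astrocyte markers 206 to 254 and 277 to 288 CPM, and those of fibroblast and meninges markers 161 to 454 and 518 to 655 CPM. The sums of 12 Purkinje cell markers (1561 to 1815 and 1299 to 1314 CPM) and of 6 oligodendrocyte precursor markers (137 to 182 and 183 to 191 CPM) did not overlap either. Purkinje cells are cerebellar, so in cortex their marker sum does not measure that cell type. Of the 11 Purkinje cell markers tested there, 3 were lower and 1 higher at an unadjusted p under 0.05, with a median log2 fold change of −0.13. None of these markers was called in cortex, and their part in the values of the 9 genes was not tested.

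Acly went the other way in cortex. It was measured at 197, 204 and 192 CPM in controls and at 173 and 183 CPM in KO, below every control, with a log2 fold change of −0.14 (SE 0.0877, edgeR adjusted p = 0.886). For the other 6 genes the groups overlapped. Scd1 gave 165, 211 and 162 CPM in controls and 182 and 194 CPM in KO (log2 fold change 0.08), and Scd2 1311, 1337 and 1229.5 CPM against 1304 and 1411 CPM (0.08).

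Fasn stood at 311, 238 and 287 CPM in control cortex and at 284 and 290.2 CPM in KO, a log2 fold change of 0.06. Acaca gave 78.4, 59.3 and 84.3 CPM in controls and 79.3 and 86.6 CPM in KO, a log2 fold change of 0.18 (SE 0.146). Both were lowest in control 2, the library with the low cortical neuron sum. Fads3 (log2 fold change 0.07) and Fads6 (−0.0001) did not separate the groups.

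Without cortex control 2 both Fads genes kept a positive log2 fold change, 0.20 for Fads2 and 0.18 for Fads1 (edgeR adjusted p = 0.184 and 0.304). Fasn then had a log2 fold change of −0.04, Fads3 of −0.08 and Acaca of 0.04, and Scd1 of 0.22, since control 2 was the library with the most Scd1. Without it 98 genes were called in cortex, none of them among the 9. Scd1 and the oligodendrocyte sum were both highest there (211 and 9254 CPM). With all cortex libraries, none of the 10 oligodendrocyte markers had a log2 fold change above 0 in KO, and their median was −0.34. The log2 fold changes of Scd1 and Scd2 were both 0.08. The part of the oligodendrocyte markers in the Scd1 value was not tested.

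A contrast over all 10 libraries tested whether the KO effect was unequal in cerebellum and cortex. It treated the libraries as independent, although each animal gave both tissues. None of the 9 passed at an adjusted p under 0.05, and 0.102% of the 20614 genes tested did. The smallest p was that of Acly, whose log2 effect in cerebellum exceeded that in cortex by 0.39 (SE 0.105, unadjusted p = 0.00368, edgeR adjusted p = 0.263). Scd1 came next, with a difference of 0.32 (SE 0.172, unadjusted p = 0.0929, edgeR adjusted p = 0.685). For Fads1 and Fads2, which were higher in KO in both tissues, the differences were 0.09 (SE 0.130) and 0.15 (SE 0.123). With the animal as a block none of the 9 passed either, and the edgeR adjusted p was 0.153 for Acly and 0.319 for Scd1. The plot of log2 fold changes sets the 3 KO contrasts beside the tissue contrast.

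**Figure D3:**
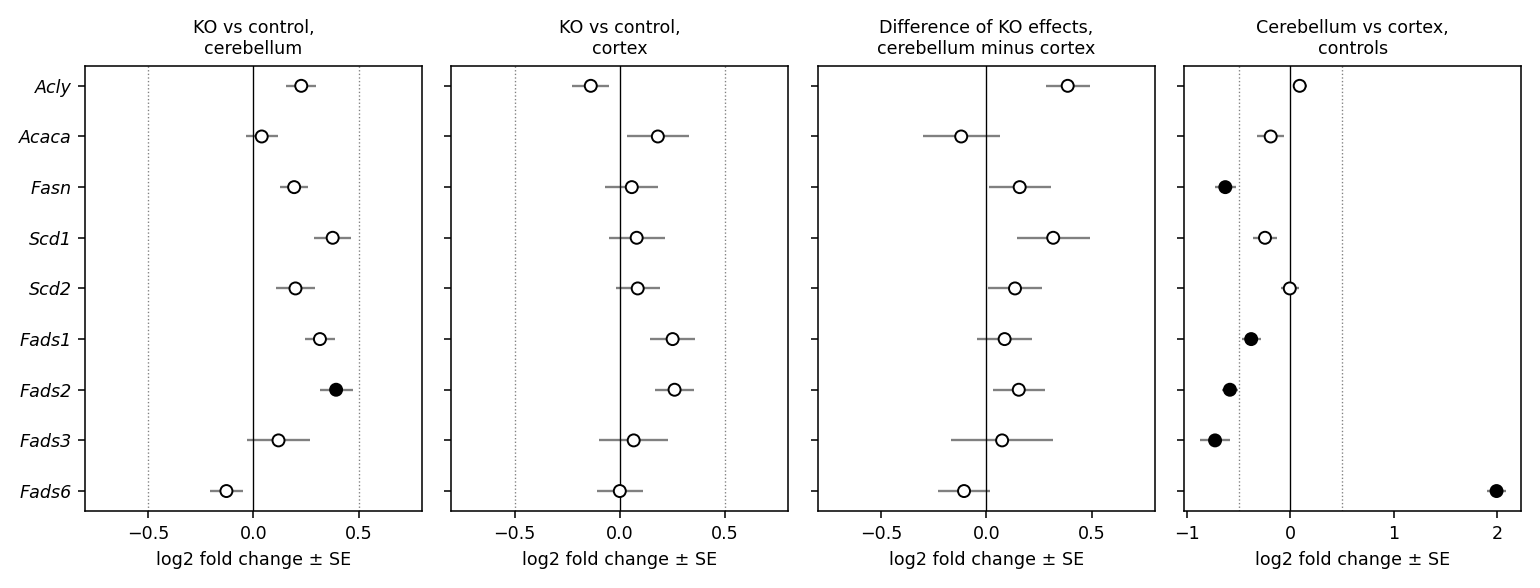
Log2 fold change ± SE of the 9 genes in the 4 contrasts named above the panels, with filled points where the adjusted p was under 0.05 and dotted lines at the fold minimum of 0.5. Only Fads2 is filled among the KO contrasts, at 0.39 in cerebellum, while in controls Fads6 stands at 1.99 to the right of 0, and Fads1, Fads2, Fads3 and Fasn are filled to the left of it.

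The comparison of the tissues in control animals showed where these genes are expressed without the knockout. Of the 9 genes 4 were called, Fads6 higher in cerebellum and Fasn, Fads2 and Fads3 higher in cortex, beside 40.5% of all 19416 genes tested. The share called was thus close to that of all genes. By direction, 1 of the 9 was on the cerebellar side (19.1% of all genes) and 3 on the cortical side (21.5%).

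Fads6 was measured at 129, 110.01 and 123 CPM in cerebellum and at 30.7, 31.6 and 28.3 CPM in cortex of the same 3 animals. The tissues were far apart, and the log2 fold change was 1.99, or 3.98-fold (SE 0.0895, edgeR adjusted p = 4.07e-07). Fads3, on the opposite side, gave 17.1, 14.6 and 16.5 CPM in cerebellum and 27.9, 21.1 and 30.8 CPM in cortex, a log2 fold change of −0.73 (SE 0.149, edgeR adjusted p = 0.00312).

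Fasn, at 179.8 to 181 CPM in cerebellum and 238 to 311 CPM in cortex, had a log2 fold change of −0.63 (SE 0.104, edgeR adjusted p = 0.000954). Fads2, at 80.3 to 84.2 CPM in cerebellum and 113 to 131 CPM in cortex, had one of −0.59 (SE 0.0781, edgeR adjusted p = 0.000277). For Fads1 the log2 fold change was −0.38 (SE 0.0921, edgeR adjusted p = 0.00766), which passed the p threshold but not the fold minimum. The libraries of the 2 tissues did not overlap for 6 of the 9 genes, with Fads6 and Acly on the cerebellar side (31.5% of all genes) and Fads1, Fads2, Fads3 and Fasn on the cortical side (30.3%).

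Acly, Acaca, Scd1 and Scd2 were not called between the tissues, with log2 fold changes of 0.09 (SE 0.0692), −0.19 (SE 0.131), −0.25 (SE 0.117) and −0.01 (SE 0.0856). Scd2 had nearly the same mean CPM in both, 1290 ± 45.7 in cerebellum and 1292 ± 55.9 in cortex (SD, n = 3). With the animal as a block, since the tissues came from the same mice, the same 4 genes were called and Scd1 also had an adjusted p of 0.0185. Without cortex control 2 the same number was called, and the adjusted p of Acaca was 0.00304 with a log2 fold change of −0.36, below the fold minimum.

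The 64 other genes of the pathway that were examined, of which 62 passed the filter in cerebellum, cover the steps around the 9. In KO cerebellum none of the 62 was called. At an adjusted p under 0.05 alone, none was higher and 2 were lower, where 1.41% of all genes were lower. Elovl6, the elongase that extends palmitate to stearate and so feeds the stearoyl-CoA desaturases, gave 83.6, 78.5 and 75.1 CPM in controls and 59.0 and 60.3 CPM in KO, a log2 fold change of −0.41 (SE 0.0693, edgeR adjusted p = 0.0204). Scd3, a close relative of Scd1, gave 31.4, 29.2 and 31.4 CPM in controls and 23.4 and 20.7 CPM in KO, a log2 fold change of −0.49 (SE 0.0965, edgeR adjusted p = 0.0448). Both were apart from the controls, on the side opposite to Scd1 and Scd2.

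The adjusted p of Elovl6 was 0.110 without control 1, 0.0586 without control 3, 0.130 without KO 1 and 0.0964 without KO 2. That of Scd3 was 0.200 without control 1, 0.155 without control 3, 0.0988 without KO 1 and 0.220 without KO 2, and without control 2 it was 0.0307 and the gene was called. DESeq2 gave 0.000641 and 0.00588.

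On the other side, Acacb, the carboxylase of the mitochondrial surface, gave 13.6, 10.1 and 15.4 CPM in controls and 19.4 and 22.0 CPM in KO, a log2 fold change of 0.66 (SE 0.172, edgeR adjusted p = 0.114), and DESeq2 called it (adjusted p = 0.0217). Srebf1, the transcription factor that drives fatty acid synthesis genes, gave 56.2, 51.8 and 62.0 CPM in controls and 68.2 and 81.1 CPM in KO. Its log2 fold change was 0.39 (SE 0.100, edgeR adjusted p = 0.107). Rxra, the partner of the liver X receptors, gave 24.3, 19.4 and 26.5 CPM in controls and 33.1 and 32.5 CPM in KO (log2 fold change 0.48, edgeR adjusted p = 0.126). All 3 were above every control in both KO libraries.

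By list, the 16 lipogenic transcription regulators held 5 genes that were higher at an unadjusted p under 0.05 and none that was lower, with a median log2 fold change of 0.02. The 8 genes of citrate, acetyl-CoA and NADPH supply held none and 1 (median 0.03), and the 9 genes of the second carboxylase and carboxylase regulators 1 and 1 (median 0.04). Of the 12 tested elongation genes 1 was higher and 1 lower (median −0.03), and of the 4 tested other desaturases and hydroxylase none and 1 (median −0.13). The 6 electron donors of the desaturases (median −0.05) and the 7 genes of mitochondrial fatty acid synthesis (median −0.03) held none in either direction. The medians of these lists were within 0.13 of 0, while those of the 3 groups of the 9 genes are drawn at the top of the plot of pathway genes by role.

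**Figure D4:**
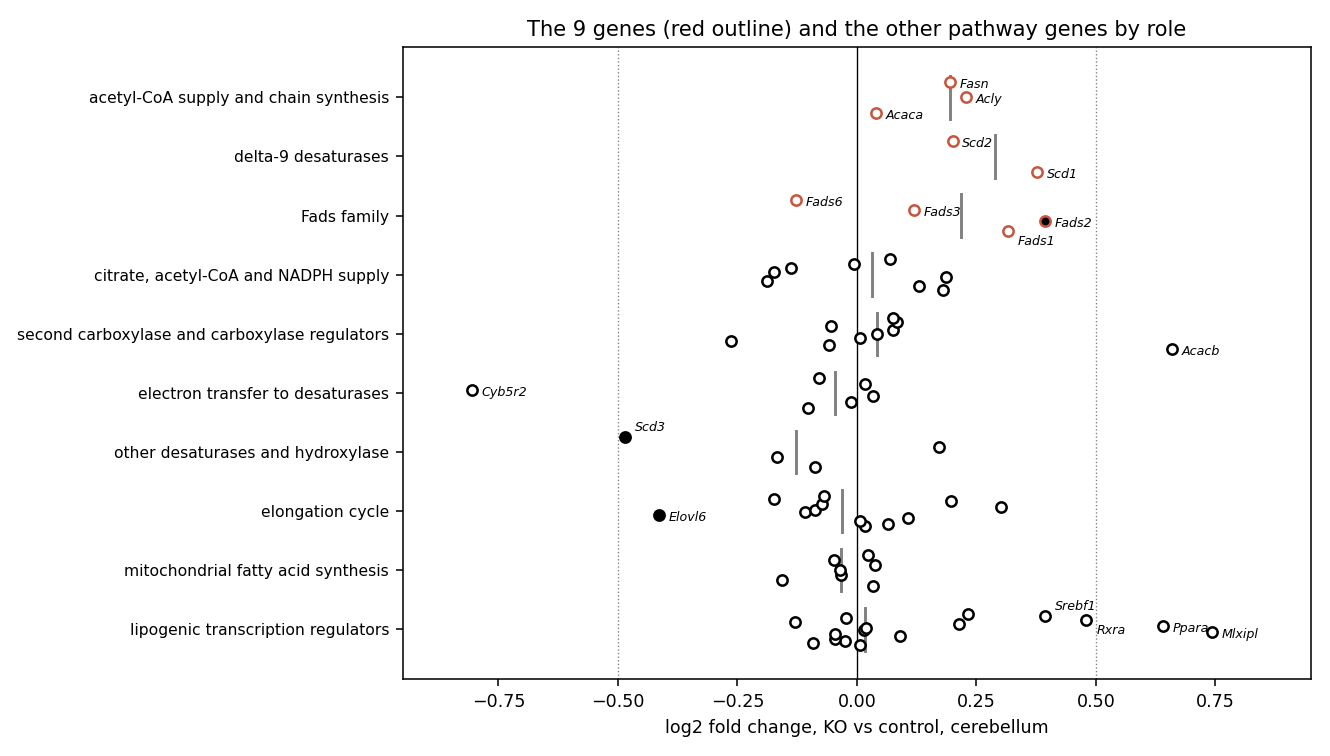
Log2 fold change in KO against control cerebellum (horizontal axis) of the 9 genes, outlined in red, and of the 62 other pathway genes tested, by role; grey bars are list medians, dotted lines the fold minimum and filled points an adjusted p under 0.05. Fads2 is filled at 0.39, and Elovl6 and Scd3 are filled at −0.41 and −0.49.

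In cortex none of the pathway genes was called. In order of p, the 5 first were Elovl2 (12.9 ± 0.625 CPM in controls and 15.8 ± 0.171 CPM in KO, log2 fold change 0.30), Scd4 (0.605 ± 0.109 and 0.267 ± 0.0135 CPM, −1.15), Ppara (1.78 ± 0.373 and 2.61 ± 0.0571 CPM, 0.57), Thrsp (18.7 ± 1.97 and 22.5 ± 0.915 CPM, 0.28) and Rxra (37.0 ± 1.08 and 41.8 ± 0.511 CPM, 0.19). Their edgeR adjusted p-values were at least 0.831. Elovl2 is an elongase of the long polyunsaturated chains that Fads1 and Fads2 desaturate.

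Between the tissues of control mice, 10 of 62 tested pathway genes were called higher in cerebellum and 9 lower, beside 19.1% and 21.5% of all genes. The 5 with the largest log2 fold changes were on the cerebellar side: Nr1h3, a liver X receptor, at 2.50 (15.1 ± 1.94 CPM in cerebellum and 2.65 ± 0.271 CPM in cortex), Scd3 at 2.31 (30.7 ± 1.28 and 6.13 ± 0.524 CPM), Acacb at 1.65 (13.0 ± 2.68 and 4.15 ± 1.09 CPM), Elovl2 at 1.57 (38.4 ± 4.04 and 12.9 ± 0.625 CPM) and Thrsp, a regulator of the carboxylase, at 1.52 (53.8 ± 2.07 and 18.7 ± 1.97 CPM). G6pdx, a source of NADPH, followed at 1.16, and Ppargc1b, a coactivator of the sterol factors, at 1.02. On the cortical side were Srebf2, which drives cholesterol synthesis, at −1.23 (105 ± 5.71 and 246 ± 22.1 CPM), Degs2 at −0.92 and Mlxipl at −0.85. All 10 had an edgeR adjusted p of at most 0.0137. Scd3 was thus on the cerebellar side while Scd1, Scd2 and the 3 Fads genes of chromosome 19 were not.

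The 9 genes did not vary together to the same degree. After centring log2 CPM within each tissue, Pearson's r over the 10 libraries of 5 mice was 0.93 for Fads1 with Fads2, 0.82 for Fasn with Fads1 and 0.82 for Scd1 with Scd2. It was −0.35 for Scd1 with Acaca, and Fads6 had a negative r with each of the other 8, down to −0.60 with Fads1. These r include the genotype difference, and the points of a mouse share its animal and those of a library its depth and composition, so they are descriptions.

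Over 12390 genes, those most like Scd1 were Dusp19 (r = 0.97), Bcas1 (0.97) and Apod (0.95). Scd2 was most like Ctso (0.98), Npc1 (0.98), the lysosomal cholesterol transporter, and Gm17114 (0.97). Fads1 had Adgrg1 (0.97), Slc12a9 (0.95) and Scara3 (0.95), and Fads2 had Jag2 (0.97), Sash1 (0.96) and Zmat4 (0.95). For Fasn the genes were Adcyap1r1 (0.97), Olfm2 (0.97) and Ndnf (0.96), for Acaca Srgap3 (0.98), Sntg1 (0.98) and Phlpp2 (0.98), and for Acly Ppp1r1a (0.97), Rnf215 (0.96) and Grm5 (0.94). Fads3 had Gpr26 (0.97), L3mbtl3 (0.96) and Ak5 (0.95), while for Fads6 no gene passed 0.90, with Hps3, Cisd2 and Galk2 at 0.89.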

How the data were processed

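Total RNA of the cerebellum and cortex of 5 mice (3 controls and 2 Snx14 KO animals per tissue) was sequenced as paired, strand-specific libraries. Each library has 1 deposited table of unnormalized counts (read pairs by gene), which the authors made by aligning trimmed reads to GRCm38 with STAR and counting exons with featureCounts 2.0.1 (Subread) without strand. Pairs on different chromosomes and multi-mapping reads were skipped, and a pair over several genes was counted for each. The tables list 81881 entries, of which 55536 carry a mouse gene identifier and were analysed, with symbols from GENCODE M21. The others held 0.160 to 0.926% of a library's counts and were left out.

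Counts were tested with edgeR 4.0.16 in R 4.3.3 (TMM factors, filterByExpr with a count minimum of 10, quasi-likelihood F test, Benjamini-Hochberg adjustment over all genes tested), within each tissue with genotype class as the only term, between tissues in controls, and as a contrast of the KO effects over 4 groups. The biological coefficient of variation, as a common value over all genes tested, was 0.121 in cerebellum and 0.141 in cortex. The printed CPM use 1 TMM scaling over all 10 libraries, and fold changes come from each fit, with SE as the absolute log2 fold change over the square root of F. TPM were computed from the counts and the exonic lengths in the tables. DESeq2 1.42.0 (the authors used 1.38.3), RLE factors, no filter, each library left out in turn and a block were alternatives. The main edgeR fit of each comparison was also run on simulated counts. These had the same spread for every gene and independent libraries, so they check the code and not the power in these data.

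The 9 genes, the pathway lists and the marker lists were chosen with earlier results of these data known. Named besides the 9 were any pathway gene called in a KO comparison, the 5 with the smallest unadjusted p in each, and, between tissues, the 10 called with the largest absolute log2 fold change and a mean of at least 1 CPM. For likeness, the 3 genes with the highest r among those of at least 5 CPM in both tissues were taken. Hsd17b8 was found as H2-Ke6. The labels number the animals, and these numbers pair the tissues. Deviations of the same animal's cerebellum and cortex from their group means correlated at 0.197, 0.370 and 0.164 in controls and 0.326 in KO. Between tissues of different controls, r was −0.255 to 0.126. With 2 KO mice the deviations mirror each other, so both have the same r by construction. Control and KO animals of a number are different mice.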

Additional observations from a re-analysis of the deposited data

Results flagged for a closer look

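Acly, the enzyme that makes cytosolic acetyl-CoA from citrate, was the only one of the 9 genes whose KO libraries were apart from the controls in opposite directions in the 2 tissues. Both KO libraries lay above all 3 controls in cerebellum (235 and 262 CPM against 207 to 215 CPM) and below all 3 in cortex (173 and 183 CPM against 192 to 204 CPM). Over all genes, KO libraries lay above every control for 15.5% in cerebellum and below every control for 14.2% in cortex. The share of all genes with both was not computed, so the pattern is not shown to be particular to Acly. The difference of the effects was 0.39 on the log2 scale, and its test over all 10 libraries gave an edgeR adjusted p of 0.263, which did not pass. The range of this adjusted p over the alternatives was 0.0823 (DESeq2) to 0.694. No group held the 4 samples needed to look for a single library far from the others.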

How the results depend on the processing

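The 9 genes gave 36 log2 fold changes over the 4 comparisons, with 378 values under alternatives. Of these 365 had the same sign and side of the thresholds, 12 had the opposite sign and 1 passed (Fads2). That 1 was the cerebellum fit without KO 1, which leaves 1 KO mouse and gave a log2 fold change of 0.51. No member was called in KO cerebellum with all libraries, but 1, Fads2, passed at an adjusted p alone. In cerebellum Acaca ranged from −0.016 to 0.087 and Fads3 from −0.12 to 0.32 with each library left out. In cortex Fasn ranged from −0.044 to 0.14, Fads3 from −0.076 to 0.18 and Fads6 from −0.050 to 0.044. Between tissues Scd2 was 0.00922 without a filter and −0.057 to 0.014 with each library left out. For the difference of the effects Fads3 ranged from −0.16 to 0.27 and Snx14 from −0.51 to 0.048. None of these passed a threshold, and the cause was not tested.

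Counts over all genes moved more. In cerebellum 302 genes were called, 133 without control 1, 179 without control 3, 180 without KO 1, 181 with the replicate number as a block and 842 with no filter. In cortex it was 0, 98 without control 2, 7 without KO 2, 3 with the block, 49 by DESeq2 and 380 with no filter. For the difference it was 21, 128 with the animal as a replicate block, 117 without cortex control 2, 36 without cerebellum KO 1, 3 to 11 without any of 6 other libraries, 219 by DESeq2 and 599 with no filter. The replicate number block pairs different mice, with r of 0.016 for number 1 and −0.035 for number 2 in cerebellum. In that tissue it left 0 of the 9 called and the edgeR adjusted p of Fads2 at 0.175. Snx14 in cortex had an edgeR adjusted p of 0.754 and a DESeq2 one of 2.11e-06, and in cerebellum 0.0989 and 0.0638 without KO 1 and KO 2. Mlxipl between tissues had 0.0517 without cerebellum control 3. With RPKM in place of TPM, 16 of 18 ranks were the same, and Acly and Fads2 exchanged ranks 3 and 4 in cortex.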
